A study of Homo sapiens with 4 samples.

Results

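WNT ligands, their Frizzled receptors, and the genes that modulate this pathway were examined in TPC1, an established line of human papillary thyroid carcinoma that carries the CCDC6-RET rearrangement, under the RET inhibitor BLU6864. The set holds 52 of the 20372 genes counted, and its members were chosen by gene name. It takes in all protein-coding genes named as numbered WNT, FZD, SFRP, or DKK genes, together with LRP5, LRP6, AXIN1, AXIN2, CTNNB1, TCF7, TCF7L1, TCF7L2, LEF1, LGR4, LGR5, RNF43, ZNRF3, SHISA2, and PORCN. RNA was sequenced after 6 h of exposure in 2 libraries and after 24 h in another 2, so both groups received the inhibitor, in medium with serum. The dose was 100 µM according to the labels and 100 nM according to the methods of the study, and both libraries of 24 h carry the word re-analysis in their labels. All 4 libraries come from 1 cell line, untreated cells were not analysed here, and an effect of longer inhibition cannot be separated from one of longer culture. The word re-analysis marks both 24 h libraries and no 6 h library, so any difference behind it cannot be separated from time either. The comparison asks which genes changed as the cells went from early to late exposure, the interval over which the study followed adaptive resistance.

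WNT proteins are secreted lipid-modified ligands that bind Frizzled receptors and the LRP5 and LRP6 co-receptors at the cell surface. Without a signal, a complex built on axin marks beta-catenin, the product of CTNNB1, for destruction. With a signal, beta-catenin accumulates and acts on target genes through the DNA-binding TCF and LEF factors, and several of these targets, AXIN2 among them, feed back on the pathway. Some ligands, such as WNT5A, are best known for signals that do not use beta-catenin. In thyroid cancer, changes of beta-catenin are known mainly from poorly differentiated and anaplastic tumors.

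The largest changes fell on a few members with different roles. SHISA2, FZD8, TCF7L1, and WNT2B were higher at 24 h, by log2 fold changes of 24 h over 6 h (log2FC) between 1.76 and 2.91. TCF7 and AXIN2 were lower, by log2FC values of -2.15 and -1.51, and so was DKK2, from few counts. Transcripts of CTNNB1 differed by a log2FC of 0.13 (standard error, SE, 0.0804) that did not pass the test, with values from 0.03 to 0.23 as each library was left out. Of the 52 members, 9 had no count in any library and 32 had sufficient counts for a test. With the cutoffs of the study's methods applied in both directions, a log2FC beyond 0.5 in size with P below 0.01 before adjustment in edgeR, 7 of the 32 were higher and 4 lower at 24 h. One of the 4, DKK2, had enough counts for the test only through the 6 h libraries, where it is high, and with at least 10 counts required in every library 7 of 31 were higher and 3 lower. Of the 32 members tested, DKK2 included, 34.4% were called. Of all 12876 genes tested, 35.1% were called, 17.4% higher and 17.7% lower. The share of members called is therefore close to the background, and the description below concerns which members moved. A log2FC beyond 1 in either direction was reached by 7 of the 32 members tested, DKK2 included, beside 15.2% of all genes. With an adjusted P under 0.05 and no cutoff on the fold change, 16 of the 32 members tested were higher and 7 lower. The shares of all genes tested were 33.0% and 32.6%, and 65.6% in either direction. The median log2FC of the members tested was 0.27, and that of all genes was 0.0029. The 2 libraries of each time did not overlap in 28 of the 32 members, 18 higher and 10 lower, beside 41.0% higher, 40.8% lower, and 81.8% together among all genes. The study selected SHISA2, FZD8, and WNT5B into its resistance signature for a rise in these libraries among others, so their direction is no independent evidence. Without them, 4 of the 29 remaining members tested were higher and 4 lower, with a median log2FC of 0.24. That is 13.8% in each direction and 27.6% together, beside the 35.1% of all genes. A log2FC beyond 1 was reached by 5 of these 29, DKK2 among them. With an adjusted P under 0.05 in edgeR and no fold cutoff, 13 of the 29 were higher and 7 lower.

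**Figure D1:**
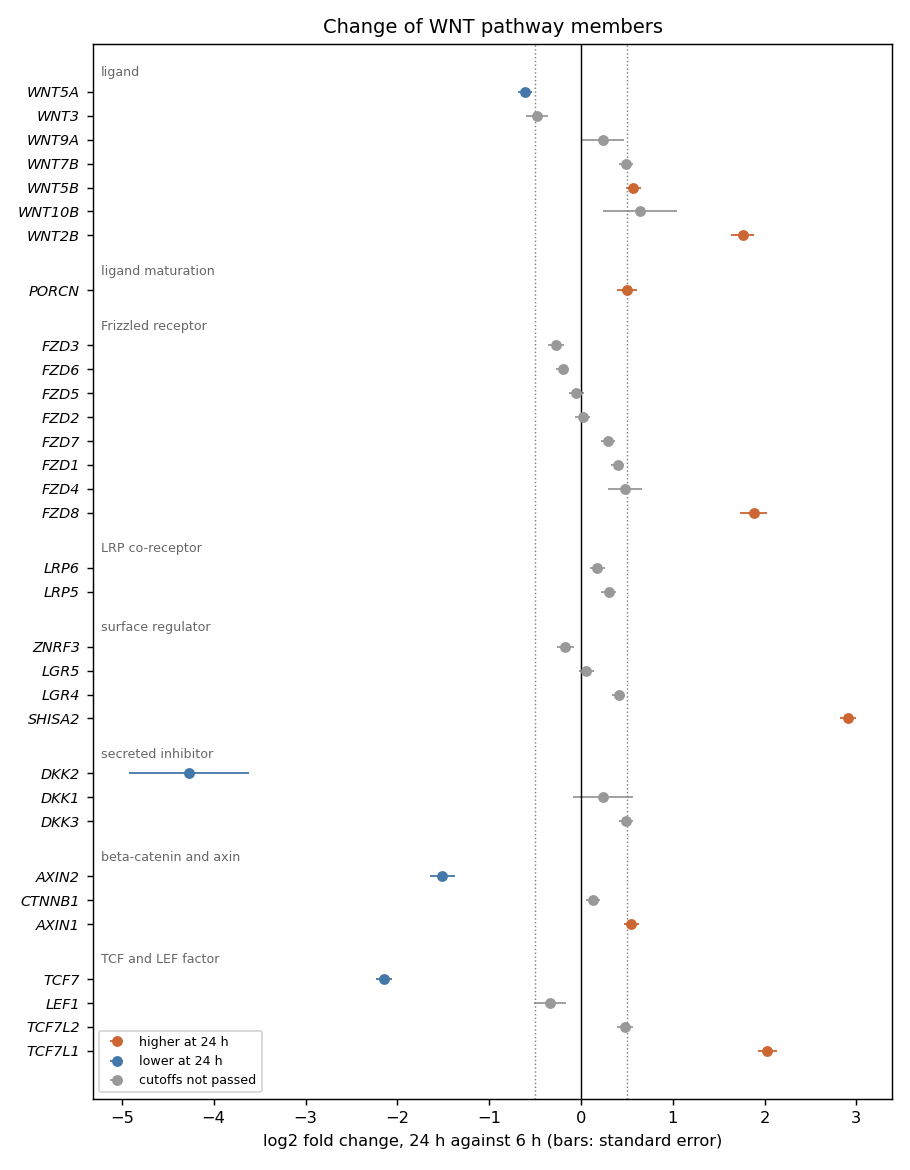
Log2FC of 24 h against 6 h (horizontal axis) for the 32 members tested, grouped by role, with bars for the SE and dotted lines at -0.5 and 0.5. SHISA2, TCF7L1, FZD8, and WNT2B stand to the right of 1 and DKK2, TCF7, and AXIN2 to the left of -1.

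**Figure D2:**
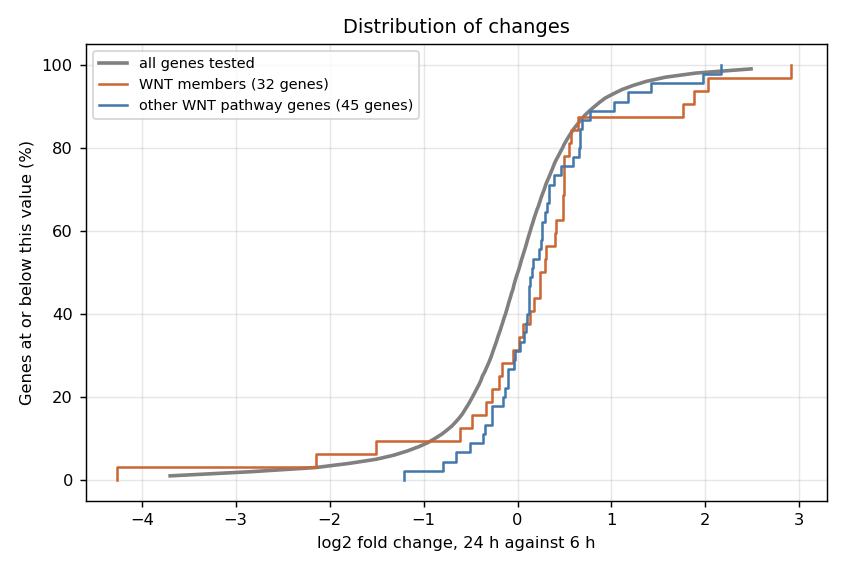
Share of genes (vertical axis, %) with a log2FC of 24 h against 6 h at or below the value on the horizontal axis, for all genes tested, the 32 WNT members, and 45 other WNT pathway genes. The curve of all genes is drawn from percentile 1 to 99, and the medians are 0.0029, 0.27, and 0.15.

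Total counts ranged from 23917056 to 27457040 per library, of which the members took between 0.207% and 0.238%. The libraries of a time differed by more than sampling noise, the chi-square over its degrees of freedom being at least 7.65, and were counted as separate replicates, although no source says that they came from separate cultures, so the P values may measure technical spread. Among thyroid markers, PAX8 had at least 19961 normalized counts per library and FOXE1 at least 268, but TSHR and NKX2-1, which define follicular cells, had 0 counts. Of 6 white blood cell markers, 5 had at most 3 counts in any library, and the fibroblast genes COL1A2 and COL3A1 had 0. The summed level of 6 fibroblast markers was between 272 and 286 at 6 h and between 145 and 160 at 24 h, with COL1A1 lower (log2FC -1.57) and LUM higher (0.75). That of 6 proliferation genes, including MKI67 and TOP2A, went from between 38497 and 39691 normalized counts at 6 h to between 1753 and 1769 at 24 h. The part of this fall in the WNT results was not tested, and in bulk RNA fewer cells with a transcript and less of it per cell cannot be told apart.

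Promoters are shown for the members around which the results turn, the opposed factors TCF7 and TCF7L1 and the regulator SHISA2, and for DKK1, which held the most matches. They are the 250 bases before and 50 bases after each RefSeq start on build GRCh38.p14, which is not the build of the counts. Each was searched on both strands for the core TCF and LEF motif in the forms CTTTGAA or CTTTGAT and the forms CTTTGTA or CTTTGTT, and matches are in capitals, with the rest in lower case. RefSeq lists a pair of starts for TCF7, and the counts per gene do not separate them.
TCF7, first start, chr5:134115363-134115662, plus strand: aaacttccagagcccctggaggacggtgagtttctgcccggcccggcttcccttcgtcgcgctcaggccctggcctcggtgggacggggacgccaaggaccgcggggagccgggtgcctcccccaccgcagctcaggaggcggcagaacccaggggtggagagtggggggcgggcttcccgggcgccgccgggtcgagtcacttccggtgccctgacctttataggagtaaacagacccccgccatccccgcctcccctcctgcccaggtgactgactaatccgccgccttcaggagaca
TCF7, second start, chr5:134123368-134123667, plus strand: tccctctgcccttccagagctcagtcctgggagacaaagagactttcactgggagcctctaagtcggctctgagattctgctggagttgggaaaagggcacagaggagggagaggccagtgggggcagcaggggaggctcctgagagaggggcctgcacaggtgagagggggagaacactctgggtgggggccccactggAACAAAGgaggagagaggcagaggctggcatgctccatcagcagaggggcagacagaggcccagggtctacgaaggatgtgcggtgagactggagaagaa
TCF7L1, chr2:85133142-85133441, plus strand: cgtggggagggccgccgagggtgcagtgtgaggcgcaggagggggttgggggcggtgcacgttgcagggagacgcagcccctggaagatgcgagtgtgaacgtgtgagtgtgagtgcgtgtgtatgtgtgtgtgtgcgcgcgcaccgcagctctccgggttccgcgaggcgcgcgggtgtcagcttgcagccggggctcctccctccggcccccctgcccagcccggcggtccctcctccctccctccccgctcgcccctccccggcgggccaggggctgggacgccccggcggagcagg
SHISA2, chr13:26051967-26052266, minus strand: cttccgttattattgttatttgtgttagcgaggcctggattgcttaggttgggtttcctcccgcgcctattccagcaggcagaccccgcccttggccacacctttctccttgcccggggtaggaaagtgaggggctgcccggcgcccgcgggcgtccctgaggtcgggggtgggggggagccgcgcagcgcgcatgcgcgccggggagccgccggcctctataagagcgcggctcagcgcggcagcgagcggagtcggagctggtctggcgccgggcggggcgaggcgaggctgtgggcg
DKK1, chr10:52314031-52314330, plus strand: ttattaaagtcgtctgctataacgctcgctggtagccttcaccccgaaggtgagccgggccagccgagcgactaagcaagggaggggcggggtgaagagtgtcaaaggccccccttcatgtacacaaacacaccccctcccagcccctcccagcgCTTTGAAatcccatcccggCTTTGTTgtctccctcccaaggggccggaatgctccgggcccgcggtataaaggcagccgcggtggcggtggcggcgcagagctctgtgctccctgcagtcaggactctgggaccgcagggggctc
The second start of TCF7 held 1 match, on the opposite strand, whose first base lies 50 bases upstream of the start. DKK1 held 2 matches, 95 and 76 bases upstream. The windows of the first TCF7 start, TCF7L1, and SHISA2 held no match. The first TCF7 start, SHISA2, and TCF7L1 were rich in CG pairs, with 25, 34, and 31 in 300 bases, whereas the second TCF7 start held 3. Promoters were listed for 36 of the 52 members, and 4 of their 44 windows held a match, those of DKK1, TCF7, TCF7L2, and WNT3. This is 9.09%, beside 13.8% of all 35116 promoters of the table and 11.2% of the 20078 that belong to protein-coding genes counted here. Median GC content was 66.7% in the members and 58.7% over all promoters, and these motifs are poor in G and C. The part of GC content in the share of windows with a match was not tested. Members without a listed promoter included AXIN2, DKK2, and WNT7B.

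Most of the 19 WNT ligand genes were scarce. WNT1, WNT3A, WNT7A, and WNT8A had no count, and another 8, WNT2, WNT4, WNT6, WNT8B, WNT9B, WNT10A, WNT11, and WNT16, had at most 7 counts in any library and were not tested. Of the 7 ligands tested, 2 were higher, 1 was lower, and 4 did not pass the cutoffs. The share called was 42.9% of these few genes, beside 35.1% of all genes tested. Ligand transcripts were dominated at both times by WNT5B, WNT5A, WNT7B, and WNT3, compared as normalized counts per kb of the canonical transcript.

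WNT2B, a ligand known to signal through beta-catenin, had the largest rise among the ligands. It had 108 and 144 normalized counts at 6 h, against 448 and 410 at 24 h. The lowest 24 h library stood well above the highest 6 h library. The rise was a log2FC of 1.76 (SE 0.129, edgeR adjusted P = 3.57e-12), where every adjusted P comes from the quasi-likelihood test of edgeR with Benjamini-Hochberg adjustment. WNT2B lies on chromosome 1 of hg19 from 113009163 to 113072787 and overlaps ST7L, whose log2FC was -0.19.

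The paired ligands WNT5A and WNT5B moved in opposite directions. WNT5A had 1162 and 1143 normalized counts at 6 h and 749 and 758 at 24 h, a log2FC of -0.61 (SE 0.0778, edgeR adjusted P = 1.28e-07). WNT5B had 727 and 788 normalized counts at 6 h and 1070 and 1187 at 24 h, a log2FC of 0.57 (SE 0.0823, edgeR adjusted P = 8.88e-07). Neither gene overlapped between the times. WNT5B is one of the signature genes that the study selected for a rise, so its change is no independent evidence. The ratio of WNT5B to WNT5A counts within a library, which does not depend on scaling between libraries, was 0.625 and 0.689 at 6 h and 1.43 and 1.57 at 24 h. Per kb of canonical transcript, WNT5B was the most abundant ligand in all 4 libraries, with 38.0% and 39.5% of the summed ligand level at 6 h and 47.5% and 47.4% at 24 h. WNT5A fell from 23.3% and 21.9% of that sum to 12.7% and 11.6%. At 6 h WNT7B and WNT5A took near shares, and which of them came second depended on the transcript length used. The summed ligand level was 854 and 891 normalized counts per kb at 6 h and 1007 and 1119 at 24 h.

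The remaining ligands tested stayed within the fold cutoff or did not pass the test. WNT7B, with 841 and 869 normalized counts at 6 h and 1123 and 1274 at 24 h, had a log2FC of 0.49 (edgeR adjusted P = 8.02e-06), just under the cutoff. WNT3, a ligand known for beta-catenin signals, had a log2FC of -0.48 (edgeR adjusted P = 0.00129), just inside it, with 285 and 280 normalized counts at 6 h and 180 and 224 at 24 h. Without the second 24 h library its log2FC was -0.64, past both cutoffs. Without the first 24 h library or without the second 6 h library, WNT7B passed as well, with 0.58 and 0.51. WNT9A and WNT10B had log2FC values of 0.24 and 0.64 with SEs of 0.230 and 0.404. Among the untested ligands, WNT16 had 4 and 5 counts at 6 h and 0 in both 24 h libraries. Set against a floor of 3 counts over the 24 h group, its 6 h counts gave a ratio of 3.10. WNT6 had 0 counts at 6 h and 2 and 5 at 24 h, a ratio of 2.26 of 24 h against the same floor. These ratios take the observed counts as exact, so they are no lower bounds on the change. PORCN, the acyltransferase that attaches the lipid to WNT proteins, had 239 and 223 normalized counts at 6 h and 314 and 340 at 24 h. Its log2FC of 0.50 (SE 0.112, edgeR adjusted P = 0.000323) barely passed the cutoff and was 0.45 without the second 24 h library and also without the second 6 h library, where it no longer passed.

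**Figure D3:**
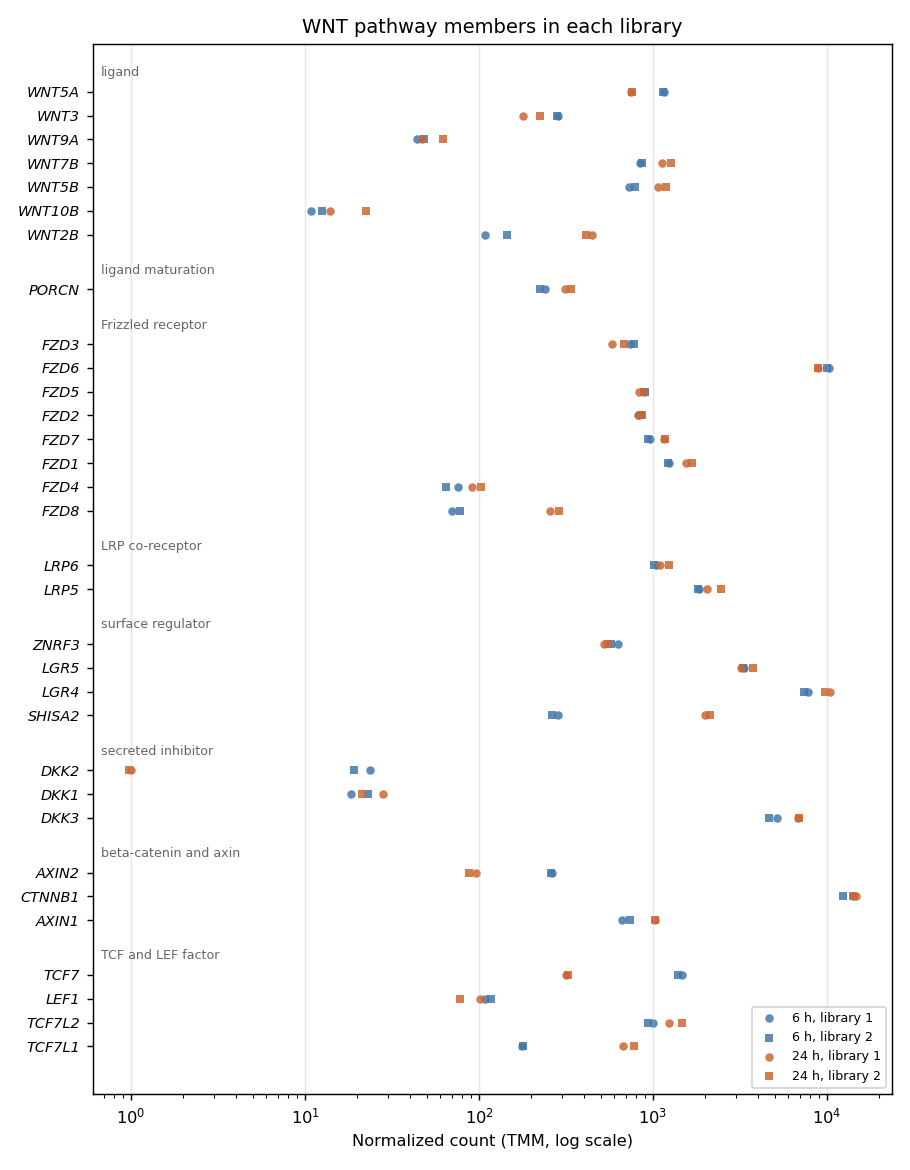
Normalized counts (horizontal axis, log scale) of the 32 members tested in each of the 4 libraries, grouped by role, with 6 h in blue, 24 h in orange, and circles and squares for libraries 1 and 2. SHISA2, FZD8, TCF7L1, and WNT2B have both 24 h libraries far to the right of the 6 h libraries, and TCF7, AXIN2, and DKK2 far to the left.

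Among the 10 Frizzled receptors, 1 passed the cutoffs and 7 tested genes did not. The share called was 12.5% of the 8 tested, beside 35.1% of all genes tested. FZD8 had 70.2 and 77.7 normalized counts at 6 h and 257 and 288 at 24 h. The groups were far apart, with a log2FC of 1.88 (SE 0.147, edgeR adjusted P = 1.30e-11). FZD8 is one of the signature genes that the study selected for a rise, so its test is no independent evidence. The gene lies on chromosome 10 of hg19 from 35927177 to 35930362 and overlaps no other gene of the table. Even after this rise FZD8 was a minor receptor, with 0.486% and 0.548% of the summed Frizzled level per kb at 6 h and 1.92% and 2.11% at 24 h.

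FZD6 was the main Frizzled transcript. It had 10259 and 10009 normalized counts at 6 h and 8827 and 8848 at 24 h, a log2FC of -0.20 (edgeR adjusted P = 0.0204) within the fold cutoff, and without the first 24 h library its adjusted P was 0.124, without the second 0.115. Per kb it made up 77.2% and 76.6% of the Frizzled level at 6 h and 71.7% and 70.6% at 24 h. FZD1, FZD2, and FZD7 followed, at 5.04% to 6.41% of the level at 6 h and 6.67% to 7.63% at 24 h. At 24 h the levels of FZD1 and FZD2 overlapped between libraries, at 225 and 244 against 220 and 228 normalized counts per kb, so their order is not resolved. FZD1 and FZD7 had log2FC values of 0.40 and 0.29 with an edgeR adjusted P of 2.99e-05 and 0.00150, under the fold cutoff. FZD4 had a log2FC of 0.48 (edgeR adjusted P = 0.0226), and the adjusted P was 0.132 without the second 24 h library and 0.184 without the second 6 h library. It overlaps PRSS23, which rose from a mean of 1966 to 3926 normalized counts, so its reads cannot be told apart from those of that gene where they overlap. FZD3 had a log2FC of -0.27 (edgeR adjusted P = 0.0112), which was -0.15 (adjusted P = 0.208) without the first 24 h library and -0.23 (adjusted P = 0.0777) without the second 6 h library. FZD2 and FZD5 had log2FC values of 0.02 and -0.05 that did not pass the test. FZD9 had 1 count in 1 library and FZD10 none. The summed Frizzled level was 3567 and 3504 normalized counts per kb at 6 h and 3301 and 3363 at 24 h.

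The co-receptors LRP5 and LRP6 stayed within the fold cutoff. LRP5 had 1836 and 1820 normalized counts at 6 h and 2049 and 2450 at 24 h. Its 24 h libraries stood above but apart from each other, and its log2FC was 0.30 (SE 0.0780, edgeR adjusted P = 0.00152). Without the second 24 h library it was 0.17 (edgeR adjusted P = 0.0848). LRP6 had a log2FC of 0.18 (edgeR adjusted P = 0.0439), and its adjusted P was between 0.0801 and 0.360 without any one library other than the first of 24 h.

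The regulators at the cell surface were led by SHISA2, which had the largest rise of all members. SHISA proteins are known to hold Frizzled and FGF receptors in the endoplasmic reticulum and so keep them from the cell surface. SHISA2 (ENSG00000180730), on chromosome 13 of hg19 from 26618735 to 26625169, had 284 and 262 normalized counts at 6 h and 1978 and 2124 at 24 h. Every 24 h value was far above every 6 h value, a 7.52-fold difference (edgeR adjusted P = 1.18e-20), and leaving out each library in turn kept the log2FC between 2.85 and 2.97. The study selected SHISA2 for a rise in these libraries among others, so these values are no independent evidence of its rise. Its level of 533 normalized counts per kb at 24 h exceeded that of every Frizzled gene except FZD6. SHISA3 and SHISA4, of the same family, had log2FC values of 0.16 and 0.15 that did not pass the test.

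LGR4 and LGR5 encode receptors for R-spondins, which enhance WNT signals, and ZNRF3 and RNF43 encode ubiquitin ligases that remove Frizzled from the surface. LGR4 was the most abundant of these per kb, with 7738 and 7388 normalized counts at 6 h and 10365 and 9789 at 24 h. Its log2FC of 0.41 (SE 0.0742, edgeR adjusted P = 2.36e-05) was under the fold cutoff. LGR5 had 3348 and 3303 normalized counts at 6 h and 3195 and 3747 at 24 h, and the groups overlapped. Its log2FC of 0.06 (SE 0.0766) turned to -0.05 without the second 24 h library. ZNRF3 had a log2FC of -0.17 (edgeR adjusted P = 0.0984). RNF43 had at most 4 counts in a library, so that ZNRF3 was the only one of this pair of ligases with sufficient counts. The R-spondin genes RSPO1, RSPO2, RSPO3, and RSPO4 had at most 3 counts.

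The secreted inhibitors were mostly silent, with no count of SFRP1, SFRP2, SFRP5, or DKK4 and at most 10 of SFRP4. SFRP proteins bind WNT ligands, and DKK1 and DKK2 block the LRP co-receptors. DKK3, a divergent family member, was the abundant one, with 5141 and 4642 normalized counts at 6 h and 6797 and 6896 at 24 h. The groups did not overlap, and the log2FC of 0.49 (SE 0.0737, edgeR adjusted P = 2.20e-06) lay just under the cutoff, which it passed without the first 24 h library (0.50) and without the first 6 h library (0.56). DKK2 went the other way, with 22 and 20 counts at 6 h and 1 and 1 at 24 h. The ratio of 6 h to 24 h was 21.7, with an exact 95% interval for counting error of 5.64 to 185, so its size is poorly known, and no support is drawn from its test, which it entered only through the 6 h libraries. DKK1 had between 17 and 28 counts in every library and overlapped between the times, with a log2FC of 0.24 (SE 0.325).

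In the destruction complex the axin genes moved apart. AXIN1, the constitutive scaffold, had 666 and 737 normalized counts at 6 h and 1030 and 1032 at 24 h, a log2FC of 0.55 (SE 0.0818, edgeR adjusted P = 1.45e-06). Without the first 6 h library it was 0.48, under the cutoff. AXIN2, the scaffold that is itself a widely used reporter of beta-catenin activity, had 263 and 260 normalized counts at 6 h and 96.6 and 87.6 at 24 h. The 24 h level of AXIN2 was 0.352 of that at 6 h, a log2FC of -1.51 (SE 0.138, edgeR adjusted P = 3.45e-10). The AXIN2 count was 0.395 and 0.353 of the AXIN1 count at 6 h and 0.0938 and 0.0849 at 24 h. CTNNB1 was the most abundant of the 3 per kb. It had 14152 and 12331 normalized counts at 6 h and 14706 and 14197 at 24 h, and the 6 h libraries differed from each other by more than those of 24 h. Its log2FC was 0.23 (edgeR adjusted P = 0.0122) without the first 6 h library, under the fold cutoff, and 0.03 without the second. These are transcript levels, and beta-catenin is controlled mainly as a protein, which was not measured in these libraries.

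The TCF and LEF factors changed in make-up more than in sum. TCF7, which encodes TCF1 and is itself a known beta-catenin target, had 1463 and 1384 normalized counts at 6 h and 316 and 325 at 24 h. The groups were far apart, with a log2FC of -2.15 (SE 0.0865, edgeR adjusted P = 9.01e-18). TCF7 lies on chromosome 5 of hg19 from 133450402 to 133487556 and overlaps SKP1, whose log2FC was -0.16. TCF7L1, which encodes TCF3, known mostly as a repressor of WNT targets, had 176 and 178 normalized counts at 6 h and 674 and 775 at 24 h. Its log2FC was 2.03 (SE 0.107, edgeR adjusted P = 3.35e-15). Within a library, TCF7 had 8.31 and 7.76 times the count of TCF7L1 at 6 h and 0.468 and 0.420 times at 24 h.

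TCF7L2, which encodes TCF4, had 1003 and 941 normalized counts at 6 h and 1240 and 1468 at 24 h. Its log2FC of 0.48 (SE 0.0824, edgeR adjusted P = 1.32e-05) was under the fold cutoff, and it was 0.60 without the first 24 h library and 0.52 without the first 6 h library. LEF1 was scarce, with 108 and 117 normalized counts at 6 h and 101 and 77.9 at 24 h, and did not pass the test (log2FC -0.34, edgeR adjusted P = 0.0876). Its log2FC was -0.53 (edgeR adjusted P = 0.0319) without the first 24 h library and -0.16 without the second. Per kb, TCF7 made up 57.0% and 56.6% of the summed level of these 4 genes at 6 h and 14.7% and 13.4% at 24 h. TCF7L1 made up 7.56% and 8.03% at 6 h and 34.5% and 35.0% at 24 h. TCF7L2 went from 31.5% and 31.0% to 46.5% and 48.7% and became the most abundant factor. The sum was 780 and 744 normalized counts per kb at 6 h and 654 and 740 at 24 h. With all exons of the protein-coding transcripts of a gene joined in place of the canonical transcript, TCF7 again went from 54.1% and 53.5% to 12.9% and 11.7%.

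**Figure D4:**
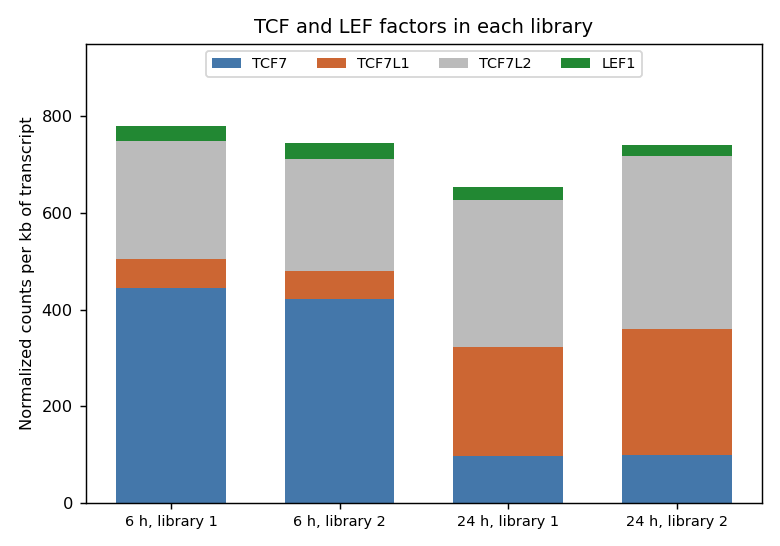
Summed level of TCF7, TCF7L1, TCF7L2, and LEF1 in each library, as stacked bars of normalized counts per kb of canonical transcript. The bars end between 654 and 780, while TCF7 shrinks from 445 and 421 at 6 h to 96.1 and 98.9 at 24 h and TCF7L1 grows from 58.9 and 59.8 to 226 and 260.

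Beside the members, 59 other genes of WNT signalling were followed, of which 45 were tested. At the same cutoffs 11 were higher and 3 lower, 31.1% together beside 35.1% of all genes, and their median log2FC was 0.15. The genes with a log2FC beyond 1 were PRICKLE1, ROR1, TLE1, AMER1, CTNNBIP1, and DACT3. PRICKLE1, of the planar cell polarity branch, had a log2FC of 2.17 (edgeR adjusted P = 8.01e-18), with 394 and 344 normalized counts at 6 h and 1612 and 1698 at 24 h. ROR1, a receptor for WNT5A and one of the signature genes that the study selected for a rise, had one of 1.98. TLE1, a corepressor that binds TCF and LEF factors, had one of 1.42, AMER1, which binds the destruction complex, one of 1.18, and CTNNBIP1, an inhibitor that binds beta-catenin, one of 1.03. DACT3, an antagonist of the pathway, had one of -1.21. The kinase genes GSK3A and GSK3B and BTRC, whose product recognizes marked beta-catenin for destruction, had log2FC values from -0.15 to 0.03 that did not pass the test, whereas CSNK1A1, the kinase that primes beta-catenin, had one of -0.66 (edgeR adjusted P = 2.08e-08). WLS, which carries WNT proteins to the surface, had one of 0.34 under the fold cutoff.

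Of 24 genes known as targets of beta-catenin and TCF in other cells, 18 were tested, and they moved in both directions, with 7 higher and 4 lower. These were 38.9% and 22.2% of the targets tested, 61.1% together, beside 17.4%, 17.7%, and 35.1% of all genes. The list was written with earlier results of these data known and holds genes that the study selected for a rise. Its shares are therefore no independent evidence about WNT targets. Of the 6 targets tested that are members of the set, AXIN2 and TCF7 were lower, and LEF1, ZNRF3, LGR5, and DKK1 did not pass the test. NKD1, NOTUM, RNF43, and SP5 had at most 4 counts. The 7 higher genes, MYC, TNFRSF19, MMP7, FOSL1, EPHB2, CCND1, and JUN, are no members of the set. MYC had 465 and 453 normalized counts at 6 h and 2593 and 2649 at 24 h, a log2FC of 2.51 (edgeR adjusted P = 2.35e-20). TNFRSF19 had a log2FC of 2.22, MMP7 one of 1.32, and FOSL1 one of 1.02. PLAUR and CD44 were lower, with log2FC values of -1.12 and -0.61. MYC, CCND1, FOSL1, JUN, PLAUR, and CD44 are also known to respond to ERK, and the study selected CCND1 and FOSL1 for a rise in these libraries among others. The part of ERK in these changes was not tested.

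**Figure D5:**
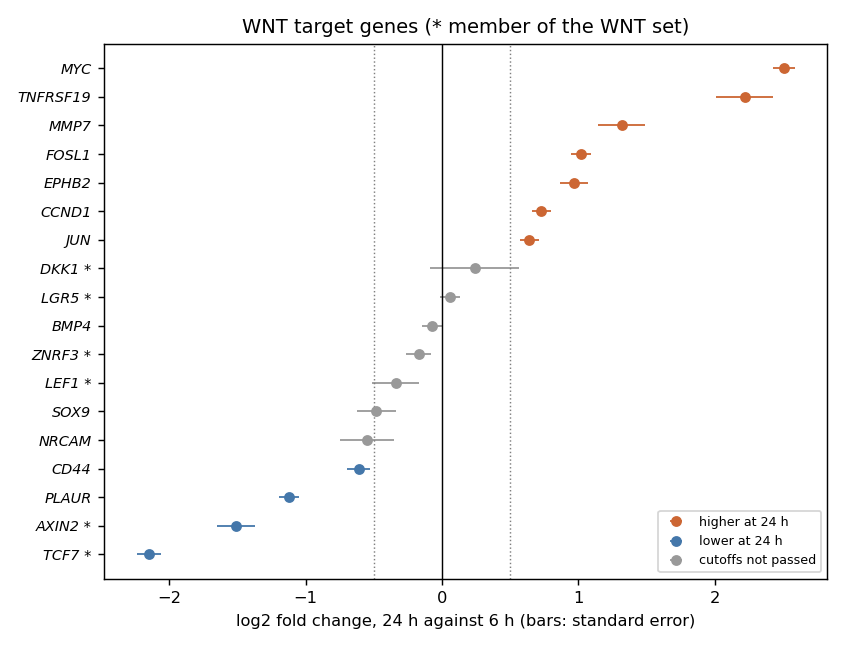
Log2FC of 24 h against 6 h (horizontal axis) with SE bars for the 18 WNT target genes tested, in order of change, with dotted lines at -0.5 and 0.5 and a star at members of the WNT set. MYC (2.51) and TNFRSF19 (2.22) stand at one end and the members TCF7 (-2.15) and AXIN2 (-1.51) at the other.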

How the data were processed

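Gene expression was measured by RNA sequencing in TPC1 cells under BLU6864, with 2 libraries after 6 h and 2 after 24 h. The authors aligned reads with STAR, version 2.3 in the submitters' processing notes and a later one in the methods, to hg19, and deposited raw counts of reads per gene. The counting program and strand setting are not given in the sources used here, so counts of overlapping genes are uncertain. The authors also deposited a normalized signal, which is the counts scaled by DESeq2 size factors, with a mean over the libraries. Their own comparison, deposited as log2 fold changes, a Wald score, and p-values, was not used.

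The raw counts entered edgeR 4.0.16 (R 4.3.3), where filterByExpr retained 12876 genes holding 99.97% of the counts. After TMM normalization, 24 h was compared with 6 h by the quasi-likelihood test. P was adjusted by Benjamini-Hochberg over all genes tested. The SE was the log2FC over the root of the F statistic. Normalized counts are raw counts over the effective TMM library size, scaled to the mean of the libraries. Levels per kb used the Ensembl canonical transcript of GENCODE v44, matched by identifier for all 52 members. Intervals cover counting error only, and ratios against a floor take the observed counts as exact. DESeq2 1.42.0 was an alternative, beside other scalings, filters, a replicate block, and each library left out. Procedures were run on simulated data in which a far smaller share of genes changed than here, so scaling under so wide a shift was not tested. Plots were drawn with matplotlib 3.10.9.

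The members and lists were chosen with earlier results of these data known. Values in every library are given for members past the cutoffs with a mean normalized count of at least 20, for the most abundant member per length of each role, and for some others chosen after their values were seen. Other pathway and target genes were named where they passed the cutoffs with a log2 fold change beyond 1, or after their values were seen. Marker lists covered thyroid, epithelial, fibroblast, white blood cell, and endothelial genes and proliferation. The epithelial genes KRT8 and KRT18 had at least 863 normalized counts per library, EPCAM and CDH1 at most 11.9, and the endothelial genes CDH5 and VWF summed to at most 18.4. The results of some single genes are not reported here.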

Additional observations from a re-analysis of the deposited data

How the results depend on the processing

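With 2 libraries per time the spread rests mostly on all genes together, and members under about 10 counts could not be tested. The numbers of members higher and lower stayed within 1.5 times of 7 and 4 under every other scaling, filter, and fit run, and DESeq2 called the same 11 members. With an adjusted P under 0.05 and no fold cutoff they were 16 and 7. Library size alone lost PORCN (0.46) and added WNT3 (-0.53), and upper quartile scaling added DKK3 (0.52), TCF7L2 (0.51), and WNT7B (0.52). Without a filter WNT16 was added, and with at least 10 counts in every library DKK2 was not tested. The median log2 fold change of the members moved from 0.27 to 0.18 without the filter, where 43 members were tested in place of 32. The fits that leave out 1 library assume that the lone library varies like the other group. They gave from 6 to 10 members higher, from 4 to 5 lower, and a median from 0.26 to 0.35. Genes with almost no change turned sign, FZD2 to -0.02 with library size alone and -0.01 without the first 6 h library, FZD5 (-0.05) to 0.00 without the first 24 h library, from a lowest value of -0.10, and LGR5 to -0.05 without the second. The medians of all genes were -0.0398 with library size alone and 0.0326 with upper quartile scaling, and the share of higher genes among all calls ran from 44.8% to 53.0%. Among the members it was 63.6%, and 54.5% and 71.4% with those scalings. The replicate numbers carry no stated meaning, and the deviations of libraries with the same number correlated at 0.0844. With the replicate number as a block, the same 11 members were called, 7 higher and 4 lower.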
